A study of Mus musculus with 9 samples.

Results

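The receptors described here are 8 genes through which hormones and natriuretic peptides act on bone: Pth1r, Npr2, Npr3, Ghr, Lepr, Vdr, Nr3c1 and Esr1. They were looked up by gene symbol, and each was measured by 1 probe set that carried a single gene symbol, so that all 8 of 8 were found among the 19937 genes compared. They were followed in MC3T3-E1 subclone 4, a clonal mouse calvarial preosteoblast line, on Affymetrix Mouse Gene 1.0 ST arrays. The groups were cells with a scrambled lentiviral shRNA before differentiation (Scr day 0), the same cells after 9 days with ascorbic acid and beta-glycerophosphate (Scr day 9), and cells with an shRNA against Runx2 at the same late time (shRunx2 day 9). Each group had 3 arrays. All cells carried a lentivirus and were sorted for its green fluorescent protein, only 1 hairpin against Runx2 was used, and no shRunx2 culture was profiled at day 0. Nor was a day 9 culture without ascorbic acid and beta-glycerophosphate profiled, so differentiation here names day 9 against day 0 in Scr cells. The knockdown could not be checked on its target in these arrays, since no probe set carried the symbol Runx2. The authors report a lower Runx2 protein level in their shRunx2 cells. Values are log2 expression after RMA, the authors' background correction, quantile normalization and probe summary. They rank samples within a gene and are set against other genes only to judge whether a signal was low. The arrays measure RNA from a whole culture, in which fewer cells of a type and less RNA per cell cannot be told apart.

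Parathyroid hormone and its related peptide act on osteoblasts through Pth1r, a G protein-coupled receptor that raises cyclic AMP. C-type natriuretic peptide drives bone growth through Npr2, which makes cyclic GMP, while Npr3 takes natriuretic peptides up and clears them. Growth hormone and leptin act through the cytokine-type receptors Ghr and Lepr, which signal by Jak2 and STAT proteins, whereas vitamin D, glucocorticoids and estrogen bind Vdr, Nr3c1 and Esr1, nuclear receptors that act on genes directly.

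Of the 8 receptors, 5 rose and 2 fell between day 0 and day 9 in Scr cells, and Lepr did not pass the test. A call required limma's adjusted p to be under 0.05, with Benjamini-Hochberg adjustment over all genes. Of all genes, 14.5% rose and 17.1% fell in this comparison. With a change of at least 1.5-fold also required, the same comparison called 5 receptors (Ghr, Esr1, Nr3c1, Vdr and Npr3), against 5.14% of all genes in either direction. The median log2 change was 0.33 over the receptors and -0.02 over all genes. Fewer receptors passed in shRunx2 against Scr cells at day 9, where Pth1r and Vdr fell, none rose and 6 did not pass. At an unadjusted p under 0.05 it was 3 lower and 1 higher. The share of all genes at that unadjusted threshold was not counted, here or for the gene lists below. At an adjusted p under 0.05, 2.73% of all genes rose and 4.66% fell in the hairpin comparison. Its median log2 change was -0.11 over the receptors and -0.004 over all genes, and no receptor changed by 1.5-fold (0.592% of all genes did). The counts describe a list of 8 and were not tested as a set. Both comparisons use the Scr day 9 arrays, and a chance deviation in those arrays would move them in opposite directions.

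**Figure D1:**
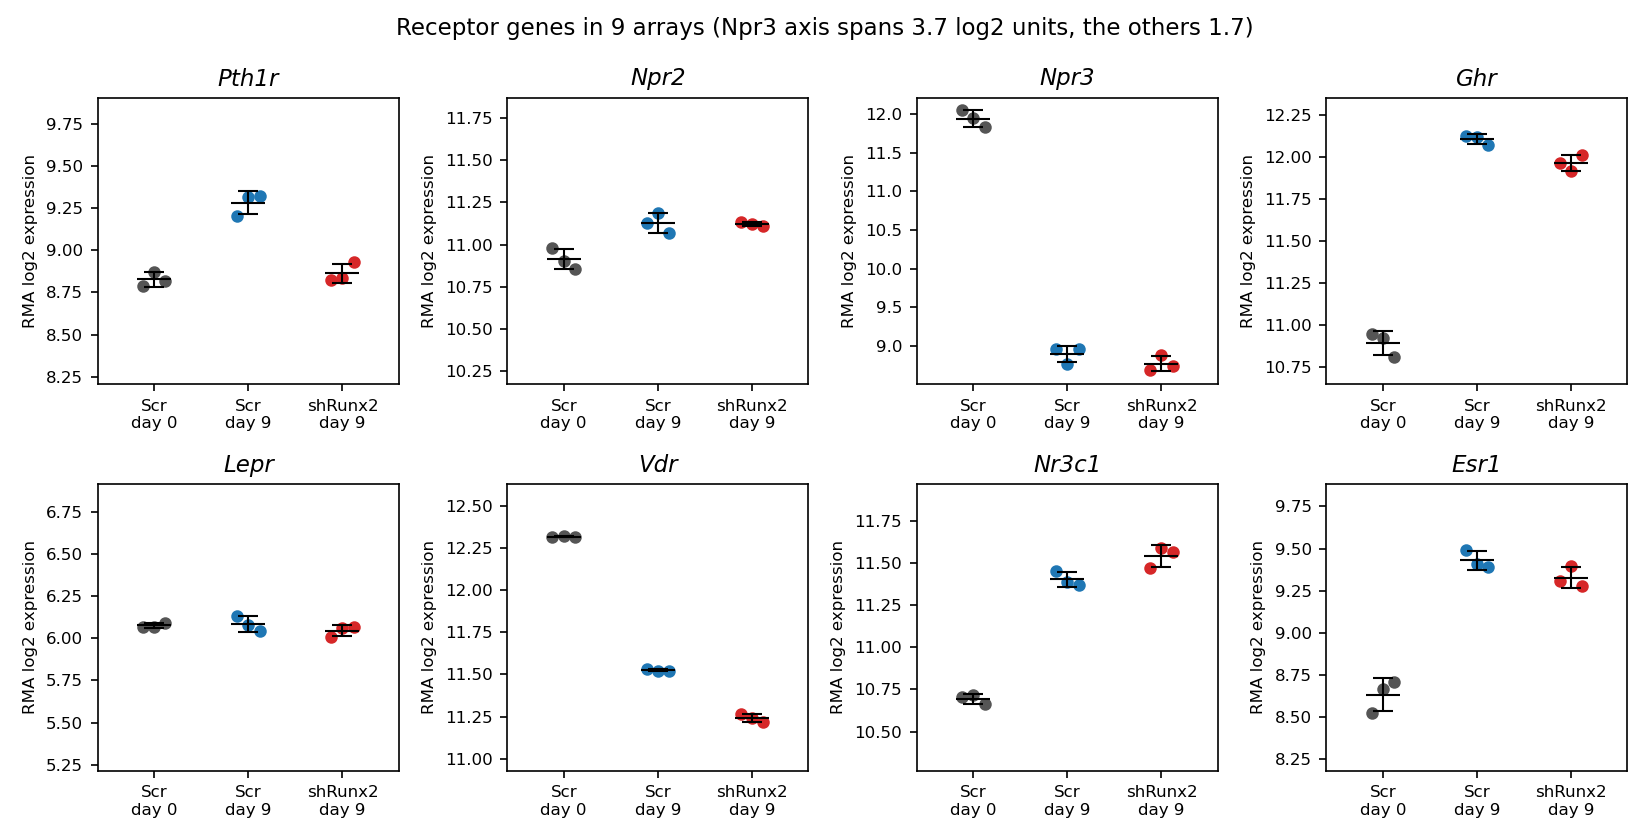
Log2 expression after RMA (vertical axes) of the 8 receptor genes in the arrays of the 3 groups. Points are single arrays, and bars give the mean and SD of 3 arrays. The axis for Npr3, which fell from 11.94 to 8.90, covers a wider range than the other 7 axes.

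To show what lies at the start sites of the receptors that the results turn on, the promoter windows of Pth1r and Vdr, which both fell in shRunx2 cells, are printed with that of Npr3, which changed most during differentiation. Each runs from 250 bases before to 50 bases after an annotated RefSeq start in build GRCm38.p6, 5′ to 3′ on the minus strand that carries these genes. Capitals mark GC boxes, GGGCGG or its reverse complement CCGCCC, the motif read by Sp family factors. The Pth1r window lies at chr9:110742561-110742860, the Vdr window at chr15:97908247-97908546 and the Npr3 window at chr15:11907322-11907621.
Pth1r: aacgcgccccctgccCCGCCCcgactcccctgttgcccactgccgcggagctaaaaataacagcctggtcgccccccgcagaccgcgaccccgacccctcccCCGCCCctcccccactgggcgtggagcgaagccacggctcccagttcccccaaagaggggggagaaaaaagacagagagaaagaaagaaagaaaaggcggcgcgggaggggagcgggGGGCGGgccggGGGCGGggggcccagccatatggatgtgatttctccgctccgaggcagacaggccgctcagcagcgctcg
Vdr: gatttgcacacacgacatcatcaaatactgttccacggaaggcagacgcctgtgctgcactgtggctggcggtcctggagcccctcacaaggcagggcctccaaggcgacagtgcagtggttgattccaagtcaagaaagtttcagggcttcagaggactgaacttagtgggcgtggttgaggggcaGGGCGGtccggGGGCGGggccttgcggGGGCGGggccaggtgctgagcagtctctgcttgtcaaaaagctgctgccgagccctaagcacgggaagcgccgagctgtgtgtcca
Npr3: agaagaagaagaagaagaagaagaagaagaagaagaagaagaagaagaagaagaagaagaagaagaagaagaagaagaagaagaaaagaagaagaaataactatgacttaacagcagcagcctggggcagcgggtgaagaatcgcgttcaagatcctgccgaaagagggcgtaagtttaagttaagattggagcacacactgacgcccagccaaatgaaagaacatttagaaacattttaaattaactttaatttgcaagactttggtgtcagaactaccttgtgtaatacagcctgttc

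The Pth1r window held 4 GC boxes in 69.3% G and C bases, and the Vdr window held 3 in 61.3%, the farthest at position -63 counted from the first transcribed base at 0. The Npr3 window held none, had 39.0% G and C against a median of 52.7% over 32851 mouse windows of the same length, and opened with an 81-base run of AAG repeats. Pth1r has 2 further annotated starts, with 1 GC box (68.0% G and C) and none (54.3%). Over 12 windows found for 7 receptors, a GC box lay in 5, belonging to Ghr, Lepr, Pth1r and Vdr, and in 35.7% of all windows. The Runx core motifs TGTGGT and TGCGGT, sought on both strands, lay in none of the 12 and in 16.8% and 6.45% of all windows. The nuclear receptor motif AGGTCA also lay in none (16.3% of all windows), and the steroid receptor motif AGAACA lay in 2, those of Npr3 and of the most upstream Pth1r start (19.0%). A match or its absence describes these letters in these windows only.

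Pth1r, the receptor for parathyroid hormone and its related peptide, rose during differentiation in Scr cells. In shRunx2 cells at day 9 it was near the Scr day 0 level. Its log2 values were 8.79, 8.87 and 8.82 in the Scr day 0 arrays, 9.20, 9.32 and 9.32 in the Scr day 9 arrays, and 8.82, 8.84 and 8.93 in the shRunx2 day 9 arrays. The Scr day 9 arrays lay above all 6 others, and the remaining groups overlapped. The rise was 0.45 (1.37-fold, SE 0.047, adjusted p = 1.49e-05), and the fall in shRunx2 cells was -0.42 (1.34-fold lower, 95% interval -0.52 to -0.32, adjusted p = 0.000213). Ordered by size, the fall ranked 265 of 19937 genes. Between shRunx2 day 9 and Scr day 0 the difference was 0.03 with an interval of -0.07 to 0.14 (adjusted p = 0.653), so a difference beyond these bounds was not seen, though the test does not show the levels to be equal.

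Of 24 measured genes of the PTH receptor pathway, 5 rose and 4 fell with differentiation, and the median log2 change was -0.01. The number that fell ran from 4 to 8 over the alternative fits. For this and the later gene lists, the shares over all genes were 14.5% that rose and 17.1% that fell. Rgs2, which speeds the shut-off of G protein alpha subunits, rose from 7.91 ± 0.21 to 10.09 ± 0.089 (SD, n = 3 arrays in every group mean below), a 4.52-fold change (limma adjusted p = 1.01e-08). Some genes had a group SD of exactly 0, such as Nppc in Scr day 9, so very small SDs are a poor guide to replicate spread. Nr4a1, an early-response nuclear receptor that cyclic AMP induces in osteoblasts, rose 2.16-fold, and Prkar2b, a regulatory subunit of protein kinase A, rose 1.55-fold. Adcy7, an adenylyl cyclase, fell 1.47-fold. In shRunx2 cells 1 of the 24 rose and 2 fell, where 2.73% of all genes rose and 4.66% fell. These shares over all genes also stand beside the hairpin counts of the later gene and marker lists. Arrb1, the beta-arrestin that uncouples activated receptors, rose from 9.34 ± 0.051 to 9.84 ± 0.065 (1.41-fold, limma adjusted p = 4.48e-05), having shown 0.06 in differentiation (adjusted p = 0.363). Nr4a1 went from 9.95 ± 0.011 at day 0 to 11.06 ± 0.047 in Scr and 10.68 ± 0.080 in shRunx2 cells at day 9, so it fell 1.30-fold with the hairpin (limma adjusted p = 0.000329). Pde4d, which breaks down cyclic AMP, fell 1.18-fold (adjusted p = 0.0245). Its adjusted p ranged up to 0.101 over the alternatives, and the call was lost on leaving out any 1 day 9 array other than shRunx2 replicate 2.

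Npr2, the guanylyl cyclase that answers C-type natriuretic peptide, rose slightly with differentiation in Scr cells. It read 10.98, 10.90 and 10.86 in Scr day 0, 11.13, 11.19 and 11.07 in Scr day 9 and 11.13, 11.12 and 11.11 in shRunx2 day 9. The day 9 groups overlapped each other, and all their arrays lay above the day 0 arrays. The change was 0.22 in Scr cells (1.16-fold, SE 0.044, limma adjusted p = 0.00235). The difference between shRunx2 and Scr cells was -0.01, with an interval of -0.10 to 0.09 (adjusted p = 0.956). Against Scr day 0, where time and hairpin changed together, shRunx2 cells stood at 0.21 (adjusted p = 0.00262).

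Npr3, the clearance receptor, fell more than any other receptor here, and the fall ranked 11 of 19937 genes by size. Its log2 values were 12.05, 11.95 and 11.83 in Scr day 0, 8.96, 8.77 and 8.96 in Scr day 9 and 8.70, 8.88 and 8.74 in shRunx2 day 9. Day 0 lay far above both day 9 groups, which overlapped. The fall in Scr cells was -3.04 (8.25-fold lower, SE 0.072, limma adjusted p = 9.35e-11). With the hairpin it changed by -0.13, with an interval of -0.28 to 0.03 (adjusted p = 0.388). Against day 0 the shRunx2 cells stood at -3.17 (9.00-fold lower, adjusted p = 5.72e-11), a comparison in which time and hairpin changed together. The 3 genes whose centred values over 9 arrays lay nearest to those of Npr3 were Anxa8, an annexin, Ppbp, a platelet chemokine, and Steap1, with root mean square differences of 0.108, 0.146 and 0.175 log2 units (Pearson's r 0.997, 0.995 and 0.998 over the 9 arrays, a description carried by the step between days). Anxa8 changed by -3.11 and Ppbp by -3.21.

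Of 16 measured genes of the natriuretic peptide pathway, 5 rose and 2 fell between day 0 and day 9, with a median log2 change of -0.01. Only 1 of them still fell when Scr day 0 replicate 1, Scr day 0 replicate 3 or Scr day 9 replicate 1 was left out. Mme, the membrane protease neprilysin, which degrades natriuretic peptides, rose from 8.72 ± 0.11 to 12.10 ± 0.030 (10.4-fold, limma adjusted p = 8.31e-12). Prkg1, a cyclic GMP-dependent kinase, rose 1.37-fold and Pde3a, a phosphodiesterase that cyclic GMP inhibits, rose 1.28-fold. Nppb, which encodes the B-type peptide, fell from 8.83 ± 0.17 to 8.17 ± 0.097 (1.58-fold lower, adjusted p = 5.47e-05). The ligand of Npr2, Nppc, changed by -0.01 (adjusted p = 0.886), and Npr1, the receptor for the atrial and B-type peptides, by 0.04 (adjusted p = 0.607). With the Runx2 hairpin Mme fell to 11.78 ± 0.073 (1.24-fold lower, limma adjusted p = 0.0053), Pde5a, which degrades cyclic GMP, rose 1.28-fold (adjusted p = 0.000364), and Pde3a fell 1.11-fold (adjusted p = 0.0334). The Pde3a call was lost on leaving out any 1 of 5 day 9 arrays, all but Scr day 9 replicate 1, with adjusted p up to 0.143 over the alternatives.

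Ghr, the growth hormone receptor, rose with differentiation in Scr cells and stood above Scr day 0 in shRunx2 cells at day 9 too. It read 10.95, 10.92 and 10.81 in Scr day 0, 12.13, 12.12 and 12.07 in Scr day 9 and 11.97, 11.91 and 12.01 in shRunx2 day 9. None of the 3 groups overlapped, with Scr day 9 highest. Between day 0 and day 9 in Scr cells it rose by 1.21 (2.32-fold, SE 0.044, limma adjusted p = 3.01e-09). The shRunx2 arrays lay below Scr day 9 by a change of -0.14 (1.10-fold lower, interval -0.24 to -0.04), which did not pass after adjustment (adjusted p = 0.0918). Over the alternatives that adjusted p ran from 0.029 to 0.243. Flrt2, Lmcd1 and Mtss2 had values nearest to those of Ghr, with root mean square differences of 0.0346, 0.0498 and 0.0519 log2 units (r 0.999, 0.996 and 0.996 over the 9 arrays).

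Of the 20 genes of the growth hormone pathway, all of them measured, 6 rose and 6 fell with differentiation, and the median log2 change was -0.03. Igf2, a growth factor, rose from 8.76 ± 0.22 to 11.75 ± 0.077 (7.90-fold, limma adjusted p = 4.3e-10), and Igfbp5, an IGF-binding protein of bone matrix, rose 5.54-fold. Socs2, which restrains growth hormone signalling, rose from 10.15 ± 0.17 to 12.36 ± 0.032 (4.64-fold, adjusted p = 6.19e-10). Socs3, a suppressor induced by STAT3, fell 2.16-fold. Igf1, the main product of growth hormone action, changed by -0.04 (adjusted p = 0.457). In shRunx2 cells Igfbp5 rose further, from 11.02 ± 0.0013 to 11.43 ± 0.046 (1.33-fold, limma adjusted p = 0.000124), Socs3 fell 1.23-fold (adjusted p = 0.0104) and the other 18 did not pass. The number that rose was 2 when Scr day 9 replicate 1 was left out.

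Lepr, the leptin receptor, showed no change that the test could see. It read 6.07, 6.07 and 6.09 in Scr day 0, 6.14, 6.08 and 6.04 in Scr day 9 and 6.01, 6.06 and 6.07 in shRunx2 day 9. All 3 groups overlapped. The interval of its change was -0.07 to 0.09 in differentiation and -0.12 to 0.04 with the hairpin (limma adjusted p = 0.909 and 0.644). Its mean lay below the median of all genes, so it dropped out where only genes above that median were tested. Array medians over all probe sets ran from 8.416 to 8.51, so the Lepr signal was low. The narrow intervals therefore do not show a steadily expressed receptor. Of 12 leptin pathway genes, 1 rose and 5 fell with differentiation, with a median log2 change of -0.09. They included Stat3, which carries the leptin signal to the nucleus, from 12.01 ± 0.025 to 11.19 ± 0.037 (1.76-fold lower, limma adjusted p = 6.65e-08), Grb2, an adaptor (1.25-fold lower), and Leprotl1, a relative of a regulator of Lepr at the cell surface (1.19-fold lower). With the hairpin none rose (2 were higher at an unadjusted p under 0.05) and 3 fell, which were Socs3, Ptpn1, a phosphatase that dampens leptin signalling (1.14-fold lower, adjusted p = 0.0107), and Foxo1 (1.10-fold lower, adjusted p = 0.0348). The Foxo1 call was lost on leaving out any 1 of the 6 day 9 arrays, with adjusted p up to 0.122, and 1 gene rose when Scr day 9 replicate 1 was left out.

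Vdr, the vitamin D receptor, fell with differentiation and lower still in shRunx2 cells. Its values were 12.32 in each of the 3 Scr day 0 arrays, 11.53, 11.52 and 11.52 in Scr day 9 and 11.27, 11.24 and 11.22 in shRunx2 day 9. The groups were fully apart, in the order day 0, Scr day 9 and shRunx2 day 9 from high to low. Between day 0 and day 9 in Scr cells it changed by -0.79 (1.73-fold lower, SE 0.033, limma adjusted p = 7.4e-09). In shRunx2 against Scr cells at day 9 the change was -0.28 (1.22-fold lower, interval -0.36 to -0.21, limma adjusted p = 0.000265). Against day 0 the shRunx2 cells stood at -1.08 (adjusted p = 5.26e-10). P4ha1, a subunit of the collagen-hydroxylating enzyme, Gars, a glycyl-tRNA synthetase, and Pstpip2 followed Vdr most closely, at root mean square differences of 0.03, 0.0383 and 0.0451 log2 units (r 0.998, 0.997 and 0.995 over the 9 arrays).

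Of 13 measured genes of the vitamin D pathway, none rose and 2 fell with differentiation (median log2 change -0.05). Rxra, the DNA-binding partner of Vdr, fell from 11.16 ± 0.015 to 10.91 ± 0.058 (1.19-fold lower, limma adjusted p = 0.000451). Lrp5, a Wnt co-receptor reported as a Vdr target, fell 1.09-fold (adjusted p = 0.0321), a call lost on leaving out Scr day 0 replicate 1 or 3 or Scr day 9 replicate 2 or 3 (adjusted p up to 0.183 over the alternatives). With the hairpin 0 of the 13 passed in limma at the adjusted threshold, and 2 were lower at an unadjusted p under 0.05, namely Rxra and Rxrb.

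Nr3c1, the glucocorticoid receptor, rose with differentiation in Scr cells and was also above Scr day 0 in shRunx2 cells at day 9. Its values were 10.71, 10.72 and 10.66 in Scr day 0, 11.46, 11.39 and 11.37 in Scr day 9 and 11.47, 11.59 and 11.57 in shRunx2 day 9. The groups did not overlap, but the highest Scr day 9 array and the lowest shRunx2 array were close. The rise was 0.71 in Scr cells (1.63-fold, SE 0.043, limma adjusted p = 1.74e-07). The further 0.14 in shRunx2 cells (1.10-fold, interval 0.04 to 0.23) did not pass (adjusted p = 0.0863), but it did without shRunx2 replicate 1 (adjusted p = 0.0499), and the adjusted p ran from 0.0097 to 0.24 over the alternatives. Flrt3, Abtb2 and Eea1 lay nearest to it, with root mean square differences of 0.0397, 0.0418 and 0.0432 log2 units (r 0.997, 0.994 and 0.994 over the 9 arrays).

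Of 19 measured glucocorticoid pathway genes, 6 rose and 6 fell with differentiation (median log2 change 0.01), and known targets of the receptor went both ways. Klf9, a glucocorticoid-induced transcription factor, rose from 9.50 ± 0.065 to 10.28 ± 0.065 (1.72-fold, limma adjusted p = 1.79e-06), and Mt1, a metallothionein, rose 1.46-fold. Sgk1, a glucocorticoid-induced kinase, fell from 10.74 ± 0.074 to 9.70 ± 0.025 (2.06-fold lower, adjusted p = 1.2e-08), and Fkbp5, a target that also restrains the receptor, fell 1.30-fold. With the hairpin Klf9 fell 1.18-fold (limma adjusted p = 0.0403), Fkbp4, a receptor chaperone, fell 1.10-fold (0.0427) and Tsc22d3, another target, rose 1.11-fold (0.0464). None of these 3 calls was firm: their adjusted p reached 0.166, 0.149 and 0.179 over the alternatives. Each was lost without any 1 of Scr day 9 replicate 2 and shRunx2 replicates 1 and 2. Fkbp4 and Tsc22d3 were also lost without Scr day 9 replicate 3 or shRunx2 replicate 3, Klf9 and Fkbp4 without Scr day 9 replicate 1, and Klf9 and Tsc22d3 without Scr day 0 replicate 1 or 2.

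Esr1, which encodes estrogen receptor alpha, rose with differentiation. It read 8.53, 8.67 and 8.71 in Scr day 0, 9.49, 9.41 and 9.39 in Scr day 9 and 9.31, 9.40 and 9.28 in shRunx2 day 9. Both day 9 groups lay above day 0 and overlapped each other. The rise was 0.80 (1.74-fold, SE 0.054, limma adjusted p = 4.58e-07), and the difference with the hairpin was -0.10 (interval -0.22 to 0.02, adjusted p = 0.337). Sod3, an extracellular superoxide dismutase, P2rx5, an ATP-gated channel, and Col24a1, a collagen chain, lay nearest, with root mean square differences of 0.0502, 0.0569 and 0.058 log2 units (r 0.990, 0.987 and 0.989 over the 9 arrays).

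Of 15 measured estrogen pathway genes, 2 rose and 4 fell with differentiation (median log2 change -0.03), and the other estrogen receptors moved in different directions. Gper1, the membrane estrogen receptor, rose from 9.31 ± 0.028 to 9.84 ± 0.056 (1.44-fold, limma adjusted p = 2.11e-06) and was at 9.29 ± 0.055 in shRunx2 cells, a fall of 1.46-fold (adjusted p = 1.57e-05). Esr2, estrogen receptor beta, fell from 8.92 ± 0.079 to 8.47 ± 0.066 (1.37-fold lower, adjusted p = 2.55e-05). The coactivator Ncoa3 and the corepressor Nrip1 fell 1.22-fold and 1.21-fold. In shRunx2 cells Esr2 rose 1.14-fold (limma adjusted p = 0.0439), but its adjusted p reached 0.179 over the alternatives, and the call was lost without Scr day 0 replicate 1 or any 1 of 5 day 9 arrays, all but Scr day 9 replicate 1.

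**Figure D2:**
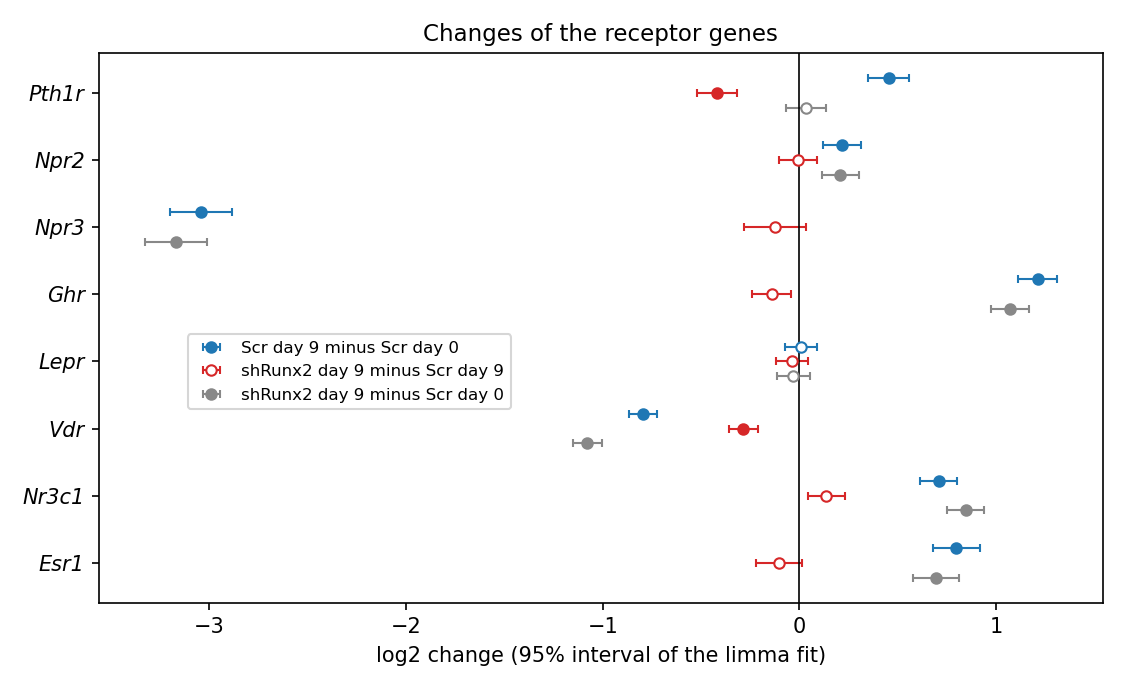
Log2 change (horizontal axis) of each receptor gene in the 3 comparisons, with the 95% interval of the limma fit. Filled points passed an adjusted p under 0.05 and open points did not, and with the hairpin at day 9 the filled points are Pth1r (-0.42) and Vdr (-0.28).

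Set side by side, the receptors fell into several patterns over the 3 groups. Pth1r rose with differentiation in Scr cells and was lower in shRunx2 than in Scr cells at day 9. Vdr fell in both comparisons. Npr2, Npr3, Ghr, Nr3c1 and Esr1 passed in differentiation only, although a pass in one comparison and none in the other does not show that the changes differ, and that difference was not tested. Against Scr day 0, with time and hairpin confounded, the shRunx2 cells had 4 receptors higher (Ghr 2.10-fold, Nr3c1 1.80-fold, Esr1 1.62-fold and Npr2 1.16-fold), Npr3 and Vdr lower, and Pth1r and Lepr not passing, where 13.8% of all genes rose and 20.4% fell. Irrespective of the test, the arrays of the groups did not overlap for 7 of 8 receptors in differentiation (40.2% of all genes) and for 4 of 8, Pth1r, Vdr, Ghr and Nr3c1, with the hairpin (23.7%).

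**Figure D3:**
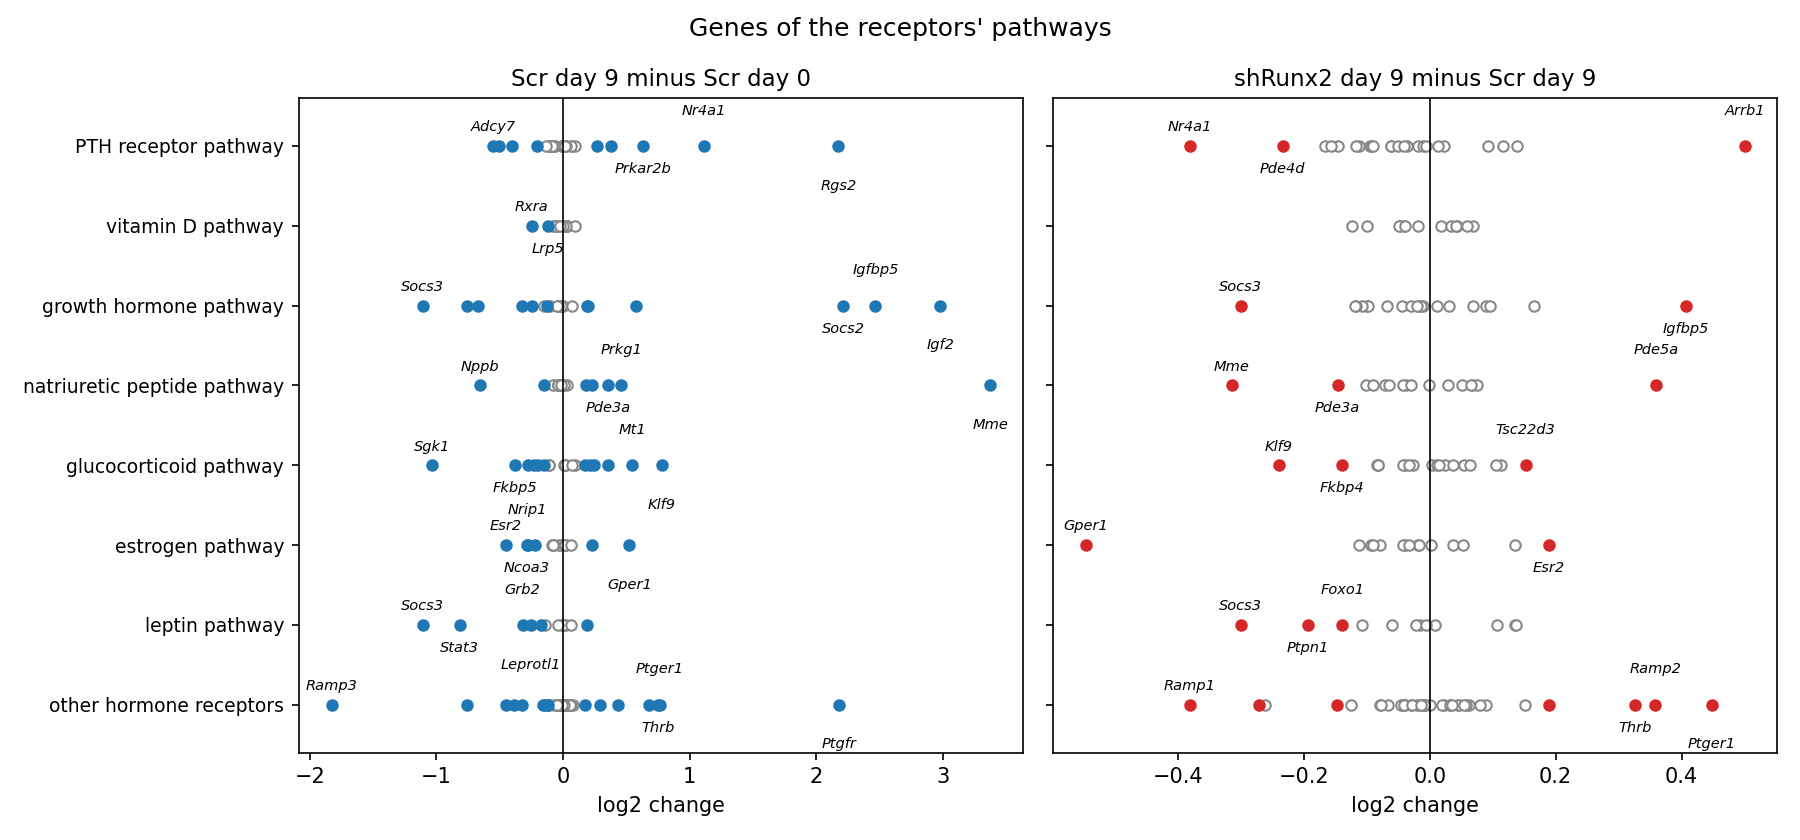
Log2 change (horizontal axes, on different scales) of the measured genes of the 7 receptor pathways and of other hormone receptors, 1 point per gene. Filled points passed an adjusted p under 0.05, and up to 4 of these per list are named. The widest changes on the left, Mme at 3.38 and Igf2 at 2.98, have smaller values on the right, -0.32 and -0.12.

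Among 38 other hormone receptors and receptor partners that were measured, 7 rose and 8 fell with differentiation (median log2 change -0.01). Ptgfr, the receptor for prostaglandin F2 alpha, rose from 10.04 ± 0.065 to 12.22 ± 0.028 (4.54-fold, limma adjusted p = 1.51e-11). Ptger1, a prostaglandin E receptor, rose by 0.77 on the log2 scale, and Thrb, thyroid hormone receptor beta, by 0.75. Ramp3, a partner that sets the ligand choice of calcitonin family receptors, fell from 10.07 ± 0.14 to 8.24 ± 0.063 (3.55-fold lower, adjusted p = 1.11e-08). With the Runx2 hairpin 4 of the 38 rose and 3 fell, where 2.73% of all genes rose and 4.66% fell. Ptger1 rose further, from 9.99 ± 0.00057 to 10.44 ± 0.013 (1.37-fold, limma adjusted p = 1.98e-05), as did Thrb (1.25-fold, adjusted p = 0.000705). The partners Ramp1 and Ramp2 went opposite ways, Ramp1 falling 1.30-fold (adjusted p = 0.000371) and Ramp2 rising 1.28-fold (adjusted p = 0.00411).

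The labelled cell type was checked against its markers. Of 11 measured osteoblast markers 6 rose and 1 fell with differentiation, with Ibsp, a bone matrix sialoprotein, up 13.6-fold, and 5 fell with the hairpin. The 1 that fell with differentiation was Ifitm5 (limma adjusted p = 0.0471), and none fell when any single array other than Scr day 0 replicate 1 was left out. Their mean log2 level over the list was 9.99 to 10.05 in Scr day 0 arrays. It was 11.07 to 11.13 in Scr day 9 and 10.62 to 10.65 in shRunx2 arrays. Like Pth1r, the list mean was highest in Scr day 9. In shRunx2 arrays it stayed above Scr day 0, whereas Pth1r overlapped Scr day 0. Some markers of other cell types moved too. Of 10 macrophage and osteoclast markers 2 rose and 1 fell (Ctsk up 3.29-fold, Lyz2 up 1.74-fold, Cd14 down), with list means of 7.996 to 8.018, 8.204 to 8.23 and 8.246 to 8.274 in the 3 groups, and Ptprc, Csf1r and Adgre1, which define these cells, did not pass in either comparison. Of 10 chondrocyte markers 3 rose, of 8 adipocyte, 8 endothelial and 10 muscle markers 1 each rose, and none fell. With the hairpin Sox9 and Sox6 rose and Col11a1 fell among chondrocyte markers, and Lyz2 rose 1.34-fold (limma adjusted p = 0.0125), Flt1, an endothelial marker, fell 1.16-fold (0.00446) and Tagln, a muscle marker, fell 1.13-fold (0.04). Of these, the Col11a1, Lyz2 and Tagln calls were lost when certain single arrays were left out, among them Scr day 9 replicates 2 and 3 and shRunx2 replicate 2 for each, with adjusted p up to 0.168, 0.0657 and 0.136 over the alternatives. The part of any of these in the receptor values was not tested.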

How the data were processed

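The deposited values are log2 expression values that the authors made with RMA from Affymetrix Mouse Gene 1.0 ST arrays, 9 arrays in all. The submitters' processing notes name RMA and limma, a filter named in the methods is not described there, and no genome build is given for the arrays in the sources used here. Of 34760 probe sets, 21640 carried 1 gene symbol in the platform annotation, 1321 several and 11799 none. Only the first were named, and where a gene had more than 1 probe set (954 genes) that of highest mean over the arrays stood for it, which left 19937 genes. Of these, 19855 gene identifiers were found in a RefSeq table, which changed no symbol.

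The model was fitted in R 4.3.3 with limma 3.58.1, by lmFit and eBayes, to all 9 arrays as 3 group means, with no covariate and Benjamini-Hochberg adjustment over all genes. Group comparisons followed the sample labels. The fit was first tested on simulated data with known changes. Quantile normalization should give arrays 1 common median, but the array medians ran from 8.416 to 8.51, so shifting and renormalizing the arrays were among the alternatives. An array has no sequencing depth, so precision was limited by the number of arrays. The methods describe biological replicates. Correlations over all genes were at least 0.9981 between arrays of a group and at most 0.9969 between groups.

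The members, gene lists and comparisons were chosen with earlier results of these data known. Named genes were the 8 receptors, up to 4 passing genes per pathway list with the smallest adjusted p in each of the first 2 comparisons, and the 3 genes with the smallest root mean square difference from each receptor that changed at least 1.5-fold. Nppc, Npr1, Igf1, Rxrb and the cell type markers were named beyond this rule, after their values were seen. Promoter windows came from RefSeq (GRCm38.p6), which gave windows for 7 of the receptors.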

Additional observations from a re-analysis of the deposited data

How the results depend on the processing

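Of 24 receptor results (8 genes in 3 comparisons), 22 kept their call under every alternative fit. The exceptions were Ghr and Nr3c1 with the hairpin at day 9. Ghr passed when only genes above the median expression were tested (adjusted p = 0.0451) and with array weights (0.029). Nr3c1 passed under both (0.0431 and 0.0172), after a second quantile normalization (0.0097) and without shRunx2 replicate 1 (0.0499). The number of receptors called with the hairpin, 2, thus became 4 (1 rose and 3 fell) with genes above the median or with array weights. Calls over all genes rose as well, from 1474 of 19937 to 2590 with array weights. With genes above the median they were 1719, after 9969 genes had been dropped. The number of receptors became 0 where a change of 1.5-fold was also required. That requirement also left 5 of 7 receptors in differentiation, without Pth1r and Npr2, and 5 of 6 between shRunx2 day 9 and Scr day 0, without Npr2. Leaving out 1 array at a time gave 2 to 3 of them, always 7 in differentiation and always 6 between shRunx2 day 9 and Scr day 0.

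Over all genes, the hairpin comparison called 1474 genes, but 2590 with array weights, 118 at 1.5-fold, 858 without Scr day 9 replicate 2 and 919 without shRunx2 replicate 1. Differentiation called 6308 genes and 1025 at 1.5-fold, and shRunx2 day 9 against Scr day 0 called 6817 and 1136. A second quantile normalization turned the hairpin split of 544 up and 930 down into 752 and 817.

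Replicate numbers did not clearly pair the samples across all groups. Deviations of same-numbered arrays correlated at -0.114 to 0.294 over 9 pairs, and those of other arrays at -0.293 to 0.115 over 18. Between Scr day 0 and Scr day 9, same-numbered arrays correlated at 0.294, 0.0823 and 0.285, and differently numbered ones at -0.293 to 0.11. Same-numbered pairs with a shRunx2 array ran from -0.114 to 0.129. Pairing between the Scr groups was thus not excluded. With the replicate number as a block, 7, 2 and 6 receptors were called in the 3 comparisons, as without it, and 6466, 1450 and 6997 genes. Of 71 results for named pathway and marker genes, tried under alternatives added after seeing the data, 59 kept their call throughout. Besides those given with their genes, Socs3 with the hairpin missed the threshold when every probe set was tested (adjusted p = 0.0515), and Col11a1, Lyz2 and Tagln with the hairpin lost it when certain single arrays were left out. The number of genes that rose with the hairpin went from 1 up to 2 in the growth hormone list and from 0 up to 2 in the leptin list, over a second quantile normalization, genes above the median, array weights and an intensity trend with robust prior. No receptor or named gene that passed the test changed sign. Among receptor changes that did not pass, Lepr in differentiation, Npr2 with the hairpin and Pth1r in shRunx2 day 9 against Scr day 0 took both signs. Each receptor had 1 probe set, so another probe set could not be tried.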
